A study of Macaca mulatta with 45 samples.

Results

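NKAIN4 is a gene for a membrane protein of the NKAIN family, whose name stands for an interaction with the sodium- and potassium-transporting ATPase. It is 1 of 30246 genes (ENSMMUG00000009231) counted in rhesus macaque brain. It was selected on measured values, the fold changes after fractionated whole-brain irradiation against control in the 3 regions studied. The differences between that group and the others are therefore described here without a test. The tests concern the other irradiated group, the regions within an animal group, and the genes around NKAIN4.

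Total RNA was sequenced from 15 animals in 3 groups of 5, with 1 library per animal and region. The regions were the dorsolateral prefrontal cortex (Brodmann area 46), the hippocampus and the white matter of the centrum semiovale. Control animals had been irradiated at the thorax only, with 10 Gy and a labelled brain dose of 0.1 Gy, so they too were irradiated animals. In the fWBI group the whole brain had been irradiated with 40 Gy in all (8 fractions, each of 5 Gy), and necropsy followed after 12 months. In the TBI group the whole body had been irradiated once, and necropsy followed after 6 to 9 years; the dose was 6.75 Gy in animals 1 and 2, 7.2 Gy in animals 3 and 4, and 8.05 Gy in animal 5. Dose, time and schedule thus differ together between the fWBI and TBI groups and cannot be told apart. The labels used here name no strain, sex or age.

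The sodium pump uses ATP to carry sodium out of the cell and potassium into it, and so maintains the ion gradients on which neurons and glia depend. It consists of a catalytic alpha subunit and a beta subunit that brings the pump to the cell surface, and small FXYD proteins tune its transport. NKAIN proteins span the membrane several times and were named after a fly protein that binds the beta subunit. In bulk tissue such as this, fewer cells of a type and less RNA per cell cannot be told apart.

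Library totals ranged from 6625435 to 12541507 counts. Levels are given as CPM, the reads of a gene scaled to a fixed library size, after TMM scaling, which adjusts library sizes for composition. The dissections carried the markers of their labels: the 6 matched genes of mature oligodendrocytes and myelin summed to 25015 to 51022 CPM in control white matter, against 537 to 5546 CPM in the control grey matter regions. White matter of control animals 1 and 3 stood apart, with 8013 and 3939 CPM summed over 12 neuron genes against 455 to 667 CPM in the other 3 control animals. In TBI and fWBI white matter the same sum ranged from 353 to 875 CPM. White matter results are given without those libraries where that changes them.

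In white matter, NKAIN4 was at 4.49, 12.0, 5.57, 7.36 and 11.8 CPM in control animals 1 to 5 (41 to 109 reads). It was at 6.23, 4.27, 6.56, 5.97 and 6.90 CPM in TBI animals 1 to 5 (34 to 71 reads). In fWBI animals 1 to 5 it was at 0, 0, 0.405, 0.397 and 0.0846 CPM (0, 0, 4, 4 and 1 reads). The control and TBI libraries overlapped, and the fWBI libraries lay far below both. A count of 0 allows up to 3 reads, which is 0.281 and 0.308 CPM in the fWBI libraries at 0. The lowest control values were those of animals 1 and 3, whose white matter also held the neuron genes.

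In hippocampus, control animals 1 to 5 had 4.14, 7.24, 4.69, 4.48 and 5.28 CPM of NKAIN4 (33 to 64 reads). TBI animals had 3.24, 2.97, 2.50, 4.64 and 6.94 CPM (24 to 72 reads), and fWBI animals 0.262, 0.356, 0.229, 0.562 and 0.185 CPM (2 to 7 reads). TBI values spread both below and into the control range, with the animal given 8.05 Gy the highest of the TBI group. No fWBI library reached the others.

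In prefrontal cortex, control animals 1 to 5 had 5.99, 7.28, 4.27, 4.35 and 5.76 CPM of NKAIN4 (29 to 74 reads). TBI animals had 3.35, 1.50, 1.78, 2.48 and 2.62 CPM (12 to 35 reads), and fWBI animals 0.371, 0.375, 0.641, 0.202 and 0.209 CPM (2 to 7 reads). Here the 3 groups formed 3 separate levels: every TBI library lay below every control library and above every fWBI library.

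**Figure D1:**
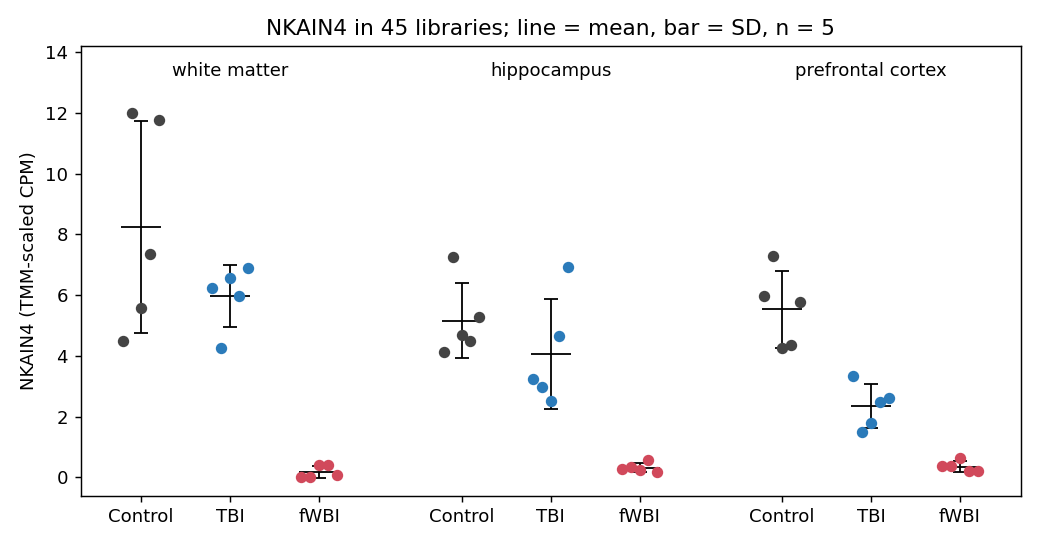
NKAIN4 level (TMM-scaled CPM, vertical axis) in each of the 45 libraries, by region and animal group; points are animals, lines are means and bars are SD (n = 5). The 15 fWBI libraries sit between 0 and 0.641 CPM, below the lowest of the 30 control and TBI libraries at 1.50 CPM.

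Ordered by level, the highest of the 9 groups was control white matter (8.23 ± 3.48 CPM, SD, n = 5), followed by TBI white matter (5.98 ± 1.02) and control prefrontal cortex (5.53 ± 1.26). Control hippocampus (5.16 ± 1.23), TBI hippocampus (4.06 ± 1.80) and TBI prefrontal cortex (2.34 ± 0.731) came next. The fWBI groups came last, with prefrontal cortex at 0.359 ± 0.178 CPM, hippocampus at 0.319 ± 0.150 and white matter at 0.177 ± 0.207. Neighbours in this order overlapped in their libraries with 1 exception, the step from TBI prefrontal cortex down to fWBI prefrontal cortex. The region with the highest level in control animals thus had the lowest mean after fWBI, although the fWBI regions overlapped.

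Read numbers limit what can be said of the low levels. The 5 fWBI libraries of a region held 19 reads of NKAIN4 in prefrontal cortex (95% exact Poisson interval 11.4 to 29.7), 17 in hippocampus (9.90 to 27.2) and 9 in white matter (4.12 to 17.1); the intervals cover counting error only. The control libraries held 247, 223 and 374 reads in the same order. The coefficient of variation between fWBI animals was 49.6% in prefrontal cortex and 47.0% in hippocampus, and counting error alone gives 51.9 and 55.6%. In control white matter it was 42.3% against 11.6% from counting, and in TBI hippocampus 44.3% against 15.7%. The control white matter spread includes libraries 1 and 3, which stood apart.

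Against control, the mean level after fWBI was 2.15% in white matter, 6.17% in the hippocampus and 6.50% in prefrontal cortex. The log2 fold change, fitted with edgeR over all tested genes, was -5.46 ± 0.53 (SE) in white matter, -3.94 ± 0.36 in the hippocampus and -3.86 ± 0.32 in prefrontal cortex. These values chose the gene and carry no test. All 5 fWBI libraries lay below the lowest control library in each region, as did those of 4.05% of the genes tested in white matter, 0.853% in the hippocampus and 1.44% in prefrontal cortex.

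The fold changes of NKAIN4 are placed here by size only. Other genes were called lower where the adjusted p was under 0.05 in edgeR's quasi-likelihood test (Benjamini-Hochberg). Of those with a symbol and averaging at least 1 CPM, none had a fold change as large as that of NKAIN4 in any of the 3 regions. The share of tested genes called lower was 8.03% of 15235 for white matter, 0.215% of 15357 for hippocampus and 0.367% of 15531 for prefrontal cortex. Next after NKAIN4 in white matter came TNR, an extracellular matrix protein of the brain (-4.61 ± 0.31), MYT1, a transcription factor of the oligodendrocyte lineage (-4.45 ± 0.28), PCDH15, a protocadherin (-3.80 ± 0.38), and CHRNA4, a nicotinic acetylcholine receptor subunit (-3.63 ± 0.56). In hippocampus they were GPR17, a receptor of differentiating oligodendrocyte precursors (-2.50 ± 0.30), P2RY12, a purine receptor of resting microglia (-1.93 ± 0.17), C1QL1 (-1.83 ± 0.32) and ENPEP, an aminopeptidase (-1.81 ± 0.22). In prefrontal cortex they were GPR17 (-3.08 ± 0.26), SELPLG, the P-selectin ligand (-2.34 ± 0.22), ENPEP (-2.28 ± 0.31) and OLIG2, a transcription factor of the oligodendrocyte lineage (-2.26 ± 0.16). Without control white matter libraries 1 and 3 the white matter value of CHRNA4 was smaller (-2.92 ± 0.51). Those of TNR, MYT1 and PCDH15 were then -4.59 ± 0.32, -4.54 ± 0.29 and -3.91 ± 0.37.

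An ID without a symbol, ENSMMUG00000015707, lay above NKAIN4 in white matter (-6.30 ± 0.31). Its fold change was -2.50 ± 0.21 in hippocampus and -2.05 ± 0.16 in prefrontal cortex. Leaving aside NKAIN4, which carries no test here, 10 genes were called lower in all 3 regions. Of all tested genes 8.03%, 0.215% and 0.367% were called lower in white matter, hippocampus and prefrontal cortex. Of the 10 genes, 6 have a symbol: GPR17, P2RY12, OLIG2, PCDH15, EPN2 and TIMP4. Each of these 6 had a smaller fold change than NKAIN4 in each region, an order that follows in part from the choice of NKAIN4 for its fall. The 3 regions come from the same animals, so they are not independent.

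**Figure D2:**
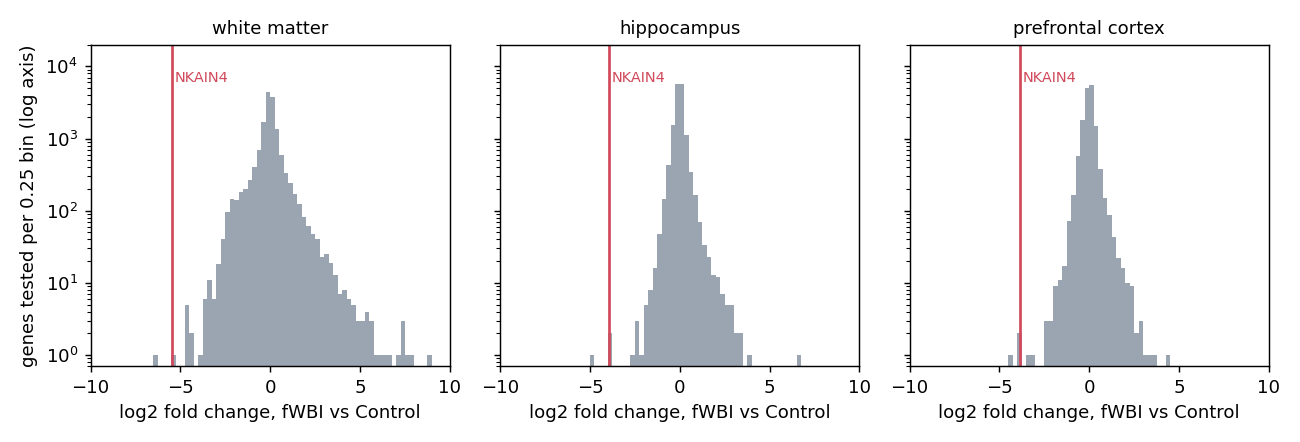
Number of genes tested (log axis) per 0.25 bin of log2 fold change after fWBI against control, in 3 panels for white matter, hippocampus and prefrontal cortex; the line marks NKAIN4. NKAIN4 lies at -5.46, -3.94 and -3.86, in the far left tail of each panel.

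The difference between fWBI and TBI animals used the same fWBI libraries and is likewise a description. NKAIN4 was lower in fWBI than in TBI animals by a log2 fold change of -5.00 ± 0.54 in white matter, -3.59 ± 0.36 in the hippocampus and -2.65 ± 0.33 in prefrontal cortex. The smaller value in prefrontal cortex goes with the lower TBI level there. The change after fWBI was larger in white matter than in prefrontal cortex by -1.55 ± 0.59 and than in hippocampus by -1.51 ± 0.61. Between hippocampus and prefrontal cortex it differed by -0.05 ± 0.50.

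Whether NKAIN4 was also lower years after total body irradiation is a comparison whose TBI libraries did not choose the gene, although it shares the control libraries with the one that did. In prefrontal cortex the mean TBI level was 42.4% of control, with a log2 fold change of -1.21 ± 0.25. Its adjusted p in edgeR's quasi-likelihood test was 0.0985 over all genes (unadjusted 0.000171), which misses the threshold of 0.05. An exact two-sided permutation test of log2 CPM gave p = 0.00794, the smallest that 252 splits of 5 against 5 can give, and 0.0238 after Benjamini-Hochberg adjustment over the 3 regions. DESeq2 called the gene, with an adjusted p of 0.00284 and a log2 fold change of -1.22. The adjusted p of the other edgeR settings lay between 0.0603 and 0.173, and between 0.0794 and 0.229 with 1 animal left out. All 5 TBI animals lay below the lowest control animal, which holds for 1.32% of the genes tested in prefrontal cortex.

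In hippocampus the mean TBI level was 78.6% of control (log2 fold change -0.35 ± 0.27, edgeR adjusted p = 0.656, exact permutation p = 0.19), with 3 of 5 TBI animals below the lowest control. In white matter it was 72.7% of control (-0.46 ± 0.37, edgeR adjusted p = 0.566, exact permutation p = 0.262), with 1 of 5 below the lowest control. All 5 TBI libraries lay below every control library for 1.06% of the genes tested in white matter and 0.86% in hippocampus. Without control white matter libraries 1 and 3 the white matter value was -0.79 ± 0.35 (edgeR adjusted p = 0.69). The remaining control libraries, at 12.0, 7.36 and 11.8 CPM, then lay above every TBI library (highest 6.90 CPM). The share of all genes with such a gap in that set was not counted. Neither region gave a difference that passed the threshold in edgeR or the permutation test, which does not show that the levels were equal.

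The background of these comparisons was low in edgeR's test: 0.0722% of genes were called after TBI in white matter, and 0 of 15357 in hippocampus and 0 of 15531 in prefrontal cortex. At an unadjusted p under 0.05 the numbers were 2751, 1661 and 1826 genes, and DESeq2 called 740, 60 and 254. NKAIN4 ranked 25 by p among the genes tested in prefrontal cortex. The TBI effect was smaller in size in white matter than in prefrontal cortex by 0.85 ± 0.34 (unadjusted p = 0.0196, adjusted p = 0.289 in edgeR) and in hippocampus by 0.86 ± 0.35 (unadjusted p = 0.0204, adjusted p = 1.00 in edgeR). Between white matter and hippocampus it differed by -0.01 ± 0.35 (adjusted p = 0.994 in edgeR). A difference between regions in the TBI effect therefore did not pass the threshold for NKAIN4; of all tested genes 0.0181%, 0 and 0.00602% did so for white matter against prefrontal cortex, hippocampus against prefrontal cortex and white matter against hippocampus.

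**Figure D3:**
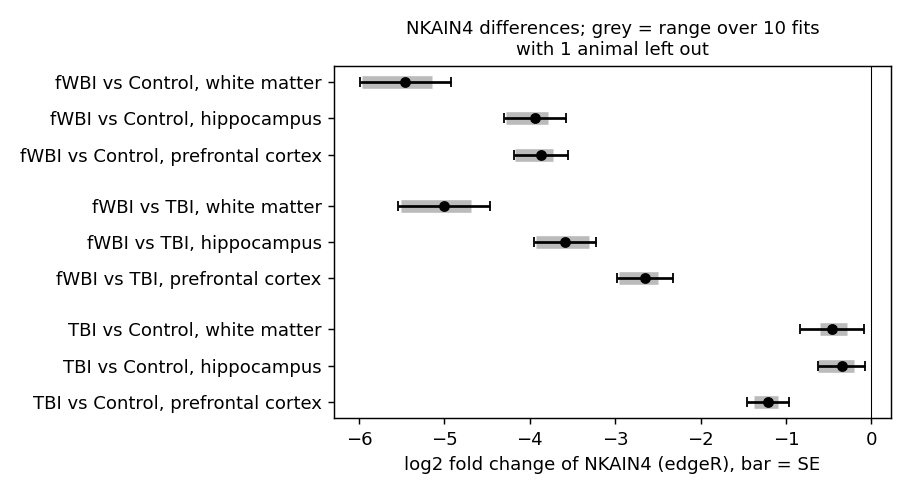
Log2 fold change of NKAIN4 (horizontal axis) for fWBI against control, fWBI against TBI and TBI against control in each region; bars are SE and grey bands the range over fits that leave out 1 animal. The fWBI against control values stay between -5.96 and -3.73, while TBI against control is -1.21 in prefrontal cortex and closer to 0 in the other regions.

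Between regions of the same control or TBI animals, NKAIN4 was highest in white matter on average, and in fWBI animals it was not. Such differences were common: in control animals 61% of tested genes were called between white matter and prefrontal cortex, 56% between white matter and hippocampus and 15.1% between hippocampus and prefrontal cortex. In control animals it was higher in white matter than in hippocampus by 0.64 ± 0.20 on the log2 scale (edgeR with animal as a block, adjusted p = 0.0186), in 5 of 5 animals. Over prefrontal cortex the excess in white matter was 0.54 ± 0.20 (edgeR adjusted p = 0.0363), in 4 of 5 animals. Hippocampus and prefrontal cortex differed by -0.10 ± 0.21 (edgeR adjusted p = 0.797). The call against hippocampus was lost without control animal 2, 4 or 5, and that against prefrontal cortex without 2, 3, 4 or 5, with an adjusted p of up to 0.113 and 0.211. Without control white matter libraries 1 and 3 the differences were larger, 0.93 (edgeR adjusted p = 0.00125) and 0.84 (edgeR adjusted p = 0.00221).

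In TBI animals all 3 regions differed, in comparisons that called 75.2% of tested genes between white matter and prefrontal cortex, 36.8% between hippocampus and prefrontal cortex and 75.1% between white matter and hippocampus. White matter was higher than prefrontal cortex by 1.37 ± 0.22 (edgeR adjusted p = 4.74e-05), in 5 of 5 animals, and this call held whichever animal was left out. Hippocampus was higher than prefrontal cortex by 0.76 ± 0.23 (edgeR adjusted p = 0.0166), in 4 of 5 animals, a call lost without TBI animal 2, 4 or 5 (adjusted p up to 0.112). White matter was higher than hippocampus by 0.61 ± 0.21 (edgeR adjusted p = 0.0146), in 4 of 5 animals, a call lost without TBI animal 3 (adjusted p = 0.0897). In fWBI animals the gene did not pass the filter on low counts. Fitted without that filter, white matter minus prefrontal cortex was -1.09 ± 0.69 (edgeR adjusted p = 0.221), hippocampus minus prefrontal cortex -0.17 ± 0.63 (0.926) and white matter minus hippocampus -0.92 ± 0.70 (0.334). No order of regions was detectable at this depth.

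The other NKAIN genes tested gave smaller fold changes after fWBI than NKAIN4, which was chosen for its fall there. NKAIN2 was at 34.0 ± 2.39 CPM in control and 30.0 ± 11.7 CPM in fWBI white matter, and its log2 fold change after fWBI was -0.18 ± 0.19 in white matter (edgeR adjusted p = 0.607), -0.06 ± 0.14 in hippocampus and -0.17 ± 0.11 in prefrontal cortex. NKAIN3 was at 16.8 ± 2.63 CPM in control and 11.0 ± 1.55 CPM in fWBI white matter, and it fell there by 0.61 ± 0.16 on the log2 scale (edgeR adjusted p = 0.0137). In hippocampus the value of NKAIN3 was 0.09 ± 0.17 and in prefrontal cortex 0.48 ± 0.19 (edgeR adjusted p = 0.272). NKAIN1 had 0 to 19 reads per library and was not tested. Neither NKAIN2 nor NKAIN3 was called after TBI in any region. Regional profiles differed as well: in control animals NKAIN3 was higher in hippocampus than in white matter (white matter minus hippocampus -0.69 ± 0.18, edgeR adjusted p = 0.00709), the opposite of NKAIN4, whereas NKAIN2 was higher in white matter (1.73 ± 0.11, edgeR adjusted p = 6.21e-06).

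Of 14 sodium pump genes, 8 were found in the table by symbol and 7 passed the filter in white matter. After fWBI, 1 of these 7 rose and 4 fell (16.8% of all tested genes were called in either direction), with a median of -0.64 against -0.03 for all genes. FXYD5, a pump regulator, went from 1.83 ± 0.73 to 13.8 ± 5.28 CPM (2.91 ± 0.35, edgeR adjusted p = 4.84e-05). ATP1B1, a beta subunit, fell from 440.3 ± 152.5 to 281.9 ± 32.1 CPM (-0.64 ± 0.19, edgeR adjusted p = 0.0268). FXYD7, another regulator of the pump, fell by 0.88 ± 0.28 on the log2 scale (edgeR adjusted p = 0.041).

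The neuron genes in control white matter 1 and 3 bear on this count. Without those libraries 10.8% of all genes were called, FXYD5 rose (2.77 ± 0.44), 1 pump gene fell, and the other 5 were not called. ATP1B1 then had -0.21 ± 0.11 (edgeR adjusted p = 0.267) and FXYD7 -0.46 ± 0.26 (edgeR adjusted p = 0.321). The count also fell to 2 or 3 of 7 without fWBI animal 2, 3 or 5. In hippocampus and prefrontal cortex 0 of 6 pump genes were called after fWBI, where 0.742% and 1.17% of all genes were called. ATP1B1 there had 0.01 ± 0.10 and -0.00 ± 0.09. After TBI edgeR called 0 pump genes in any region, where it called 0.0722% of all genes in white matter and 0 elsewhere. ATP1B2 was not matched by symbol and has no value here.

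**Figure D4:**
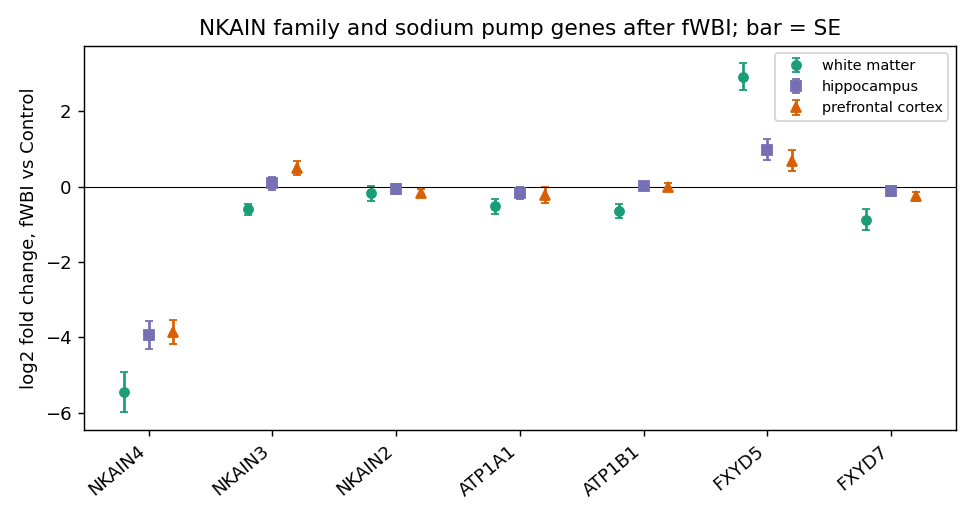
Log2 fold change after fWBI against control (vertical axis) for NKAIN2 to NKAIN4 and 4 sodium pump genes tested in all regions, with symbols for the region and bars for SE (n = 5 per group). NKAIN4 lies between -5.46 and -3.86, and apart from FXYD5 in white matter the others stay within about 1 of 0.

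The genes of oligodendrocyte precursors, cells that divide and mature into myelin-forming oligodendrocytes, were lower alongside NKAIN4. Of 13 listed genes 11 were matched and tested. After fWBI 11 of 11 were called lower in white matter (median -1.91), 4 in hippocampus (median -0.89) and 5 in prefrontal cortex (median -0.90), where 8.03%, 0.215% and 0.367% of all tested genes were called lower; 0 were called higher. Without control white matter libraries 1 and 3, 10 of 11 were called in white matter. MYT1 and TNR, given above, and BCAN, a proteoglycan (-1.91 ± 0.18), had the smallest p-values in white matter. In hippocampus these were GPR17, given above, CSPG4, the NG2 proteoglycan (-1.27 ± 0.22), and OLIG2 (-1.50 ± 0.27), and in prefrontal cortex OLIG2, GPR17 and PCDH15 (-0.93 ± 0.11). PDGFRA, the growth factor receptor that marks these precursors, fell by 0.31 ± 0.09 on the log2 scale in white matter. Without control white matter libraries 1 and 3 it had -0.25 ± 0.10 and was not called (edgeR adjusted p = 0.146).

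After fWBI the summed level of the 11 genes stayed at a larger share of control than NKAIN4 did. NKAIN4 was chosen for its fall there, so this order follows in part from the choice and carries no test. The sum was 36.7% of control in fWBI white matter (889 to 1102 CPM against 1809 to 3372). It was 70.8% in hippocampus (702 to 1182 against 932 to 1605) and 71.8% in prefrontal cortex (470 to 696 against 648 to 1100). None of the 11 was at 0 in all libraries of a group. The sum is weighted to abundant members. By the mean log2 CPM of the 11 genes, fWBI libraries were at 21.2% of control in white matter, 51.0% in the hippocampus and 47.6% in the prefrontal cortex, and TBI prefrontal cortex at 92.0%. In TBI prefrontal cortex, where NKAIN4 was at 42.4% of control, the sum was 102% of control (692 to 970 CPM). EdgeR called 0 of the 15531 genes tested there, NKAIN4 and the 11 among them, so the calls do not tell them apart. GPR17 was at 2.78 to 4.13 CPM in TBI and 4.43 to 9.04 CPM in control prefrontal cortex (-0.88 ± 0.22, edgeR adjusted p = 0.13). These groups did not overlap, and 1.32% of the genes tested there had all TBI libraries below all control libraries. The part of these cells in the level of NKAIN4 was not tested.

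**Figure D5:**
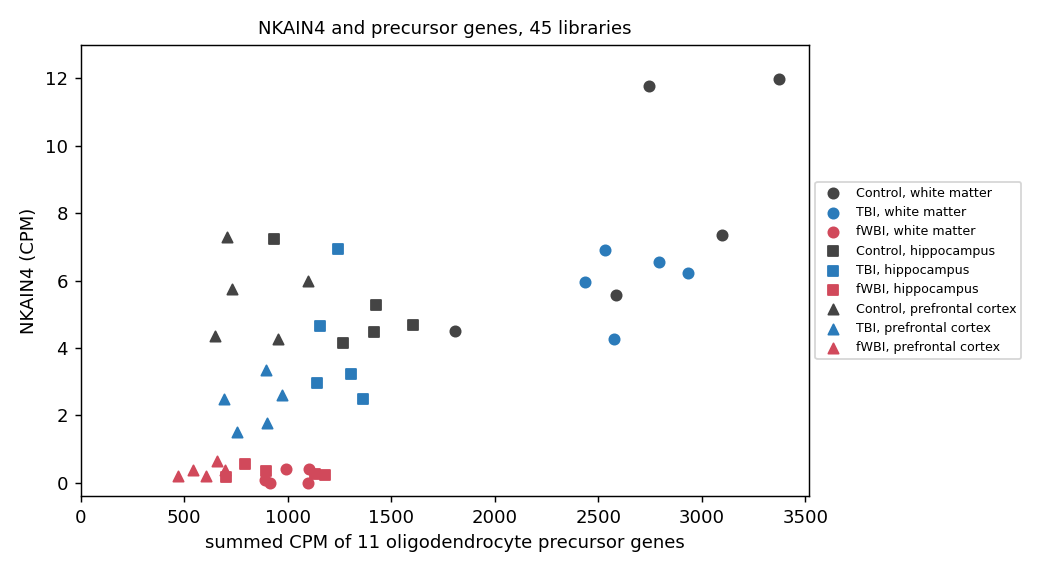
NKAIN4 level (CPM, vertical axis) against the summed level of 11 oligodendrocyte precursor genes (CPM, horizontal axis) in the 45 libraries, with colour for the animal group and symbol for the region. fWBI white matter has 889 to 1102 CPM of the precursor genes and at most 0.405 CPM of NKAIN4, while TBI prefrontal cortex has 692 to 970 CPM and 1.50 to 3.35 CPM.

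Astrocyte genes moved in both directions in fWBI white matter. Of 11 tested, 2 rose and 3 fell, where 16.8% of all tested genes were called in either direction. SLC1A2, a glutamate transporter (-2.25 ± 0.23), and GJB6, a connexin (-1.02 ± 0.22), fell, and GFAP, the filament protein of reactive astrocytes (1.33 ± 0.21), rose. In prefrontal cortex GFAP (1.08 ± 0.21) and the water channel AQP4 (0.60 ± 0.14) rose, and in hippocampus 0 of 11 were called. The summed astrocyte level was 128%, 117% and 113% of control in white matter, hippocampus and prefrontal cortex after fWBI. NKAIN4, chosen for its fall there, was at 2.15 to 6.50%. In white matter the sum was 17330 CPM in fWBI animal 5 and 9175 to 10409 CPM in the other 4, and without animal 5 it was 112% of control. The mean log2 CPM of the same genes was lower than control in fWBI white matter (8.39 against 8.58) and higher in hippocampus (8.68 against 8.48) and prefrontal cortex (8.43 against 8.19).

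The remaining cell type lists gave these counts in fWBI white matter, again beside 16.8% of all tested genes called, so that 1 call in a short list is near the background. For neurons 0 of 12 rose and 7 fell, with 0 called without control libraries 1 and 3. For microglia 3 of 5 rose, among them C1QC (2.80 ± 0.29) and CD68 (3.70 ± 0.39), and P2RY12 fell (-1.36 ± 0.21). For endothelium 2 of 6 rose and 1 fell, for ependyma and choroid plexus 1 of 2 rose, and for immature neurons and progenitors 1 of 3 fell. For mature oligodendrocytes and myelin 0 of 6 were called, and 3 were called lower without control libraries 1 and 3. In hippocampus, where 0.742% of all genes were called, C1QC (1.19 ± 0.24) and PECAM1, an endothelial adhesion molecule (0.73 ± 0.13), rose and P2RY12 fell, and in prefrontal cortex, where 1.17% were called, P2RY12 fell (-1.75 ± 0.18). No other member of these 6 lists was called in either region. After TBI edgeR called 0 members of any list in any region, where it called 0.0722% of all genes in white matter and 0 elsewhere.

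The genes whose pattern was most like that of NKAIN4 were sought among 11447 genes with a symbol and a mean of at least 1 CPM. Over the 9 group means of log2 CPM, the 8 highest correlations were those of FERMT1, an integrin activator of the kindlin family (r = 0.949), HAPLN3, a hyaluronan link protein (0.946), TENT5B (0.938), WRAP53 (0.913), IFT20, an intraflagellar transport protein (0.906), LHFPL3, a precursor gene listed above (0.899), and a pair of U1 small nuclear RNA genes (0.933 and 0.894). The 9 points share animals across regions, and the U1 genes have near-identical copies among which reads can be split. The group means include the fWBI groups, so these genes were picked in part for low values there, and their fold changes after fWBI are descriptions with no test. FERMT1 was at 3.07 to 10.8 CPM in control and 0 to 1.12 CPM in fWBI white matter (-3.57 ± 0.50), and at 1.96 to 5.81 and 0.731 to 1.41 CPM in prefrontal cortex (-1.53 ± 0.32). In hippocampus its control range of 2.64 to 5.76 CPM and fWBI range of 0.343 to 4.02 CPM overlapped (-1.41 ± 0.44), unlike those of NKAIN4. TENT5B had -1.97 ± 0.36 in white matter, -1.73 ± 0.24 in the hippocampus and -1.17 ± 0.40 in the prefrontal cortex.

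Within groups a different set of genes followed NKAIN4. Over the deviations of the 30 control and TBI libraries from their group means, the 5 highest correlations were those of KIAA0930 (r = 0.82), WDR83OS (0.819), FCGR1A, an immunoglobulin receptor of myeloid cells (0.795), SLC35D2, a nucleotide sugar transporter (0.764), and VASP, an actin regulator (0.738). Without control white matter libraries 1 and 3 they were 0.751, 0.743, 0.732, 0.662 and 0.714 over 28 libraries. None of these 5 was lower after fWBI to an extent that passed the test. In fWBI white matter, where NKAIN4 was lowest, FCGR1A rose (1.44 ± 0.25, edgeR adjusted p = 0.000852), as did WDR83OS (1.49 ± 0.29, edgeR adjusted p = 0.00235) and VASP (0.61 ± 0.17, edgeR adjusted p = 0.0203). The median correlation within groups was 0.09 for the precursor genes, 0.06 for the astrocyte genes, 0.35 for the myelin genes, 0.31 for the microglia genes, -0.42 for the pump genes and -0.53 for the neuron genes. Over all 11447 genes it was 0.00. Libraries of 1 animal and the neuron content of white matter are shared by these points.

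Of the 4 matched genes annotated nearest to NKAIN4, 0 were called lower after fWBI in any region. In the gene order of the RefSeq assembly T2T-MMU8v2.0, NKAIN4 lies on chromosome 10 and 0 annotated genes overlap it. BIRC7, an inhibitor of apoptosis, comes directly before it, and after fWBI it had 2.32 ± 0.76 in white matter (edgeR adjusted p = 0.0461), -0.17 ± 0.42 in hippocampus and 0.39 ± 0.46 in prefrontal cortex. Its fWBI white matter libraries were at 12.8, 6.25, 6.07, 63.3 and 3.13 CPM, against 0.657 to 8.09 CPM in control. Without fWBI animal 4 the white matter value was 0.95 ± 0.55 (edgeR adjusted p = 0.297), and without control white matter libraries 1 and 3 it was 1.73 (edgeR adjusted p = 0.208). The call was also lost without control animal 1, 2, 3 or 4 or fWBI animal 1 (edgeR adjusted p = 0.057 to 0.109). YTHDF1, a reader of methylated RNA, is next before BIRC7 and had -0.03 ± 0.07, -0.01 ± 0.07 and -0.10 ± 0.07 in the same regions. On the other side, past 2 loci with no match in the table, ARFGAP1 had -0.24 in each region and COL20A1, a collagen gene, had -0.74 ± 0.54, -0.88 ± 0.46 and -1.78 ± 0.44 (edgeR adjusted p = 0.0602 in prefrontal cortex). YTHDF1, ARFGAP1 and COL20A1 did not pass the threshold in any region after fWBI.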

How the data were processed

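The deposited data are raw counts of reads, 1 value per gene and library, for 45 libraries of ribosome-depleted total RNA (stranded kit, per the labels' protocols; RIN 7.1 to 9.3). FastQC, STAR, featureCounts and DESeq2 are the tools listed in the submitters' processing notes. Which genome build, annotation and strand setting were used is not given in the sources used here, so antisense reads may be included. Of 30246 gene IDs 15769 have a symbol in the gene name table. All 45 columns were matched to a sample by label, and no 2 libraries of a group agreed within sampling noise (smallest chi-square per gene 6.94).

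Counts were tested with edgeR 4.0.16 (R 4.3.3; quasi-likelihood test, TMM, default low-count filter), adjusted by Benjamini-Hochberg within each comparison. Irradiation was fitted per region on 15 libraries, regions within an animal group on 15 libraries with animal as a block, and the region difference of the TBI effect on 45 libraries with animal as a block. Libraries of the same animal deviated together across regions (median r = 0.288 over 45 pairs across genes, 41 above 0.1); the pairing comes from the labels. CPM values were scaled by TMM over 45 libraries, and log2 CPM used a prior count of 2. SE is the absolute log2 fold change divided by the square root of F. All tests were two-sided, and scripts were tested on simulated data.

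NKAIN4 and the gene lists were chosen with earlier results of these data known. Named were NKAIN1 to NKAIN4, up to 3 called members per list and comparison, the 8 and 5 genes most like NKAIN4, the 5 largest falls per region, and the 2 matched genes on each side. FXYD7, PDGFRA, GPR17 in TBI animals and the genes of the overlap of regions were named after their values were seen. A few genes covered by this naming are left unreported. Alternatives were DESeq2 1.42.0 (test and size factors), other filters, other sets of libraries, the animal number as a block, and fits that left out animals.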

Additional observations from a re-analysis of the deposited data

How the results depend on the processing

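The fWBI differences of NKAIN4 kept their direction under 103 of 103 alternatives. Leaving out 1 animal gave -5.96 to -5.15 in white matter, -4.28 to -3.78 in hippocampus and -4.17 to -3.73 in prefrontal cortex. For the tests of NKAIN4, 124 alternatives kept direction and side of the threshold, 13 lost it, 2 gained it and 7 reversed a value near 0. Gained were those for TBI prefrontal cortex, with DESeq2 (-1.22, adjusted p = 0.00284) and with the exact permutation test (-1.19, p = 0.00794); the cause was not tested.

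Animal numbers are shared by groups only as numbers: the deviations of same-numbered libraries of different groups had a median r of 0.0128 over 45 pairs, 13 above 0.1, and 11 of 45 libraries correlated best with their own number. With this replicate block, NKAIN4 after TBI had -0.41 in white matter (edgeR adjusted p = 0.675), -0.40 in hippocampus (0.629) and -1.21 in prefrontal cortex (0.0603). The block moved the genes called after TBI in prefrontal cortex from 0 to 56, after fWBI in prefrontal cortex from 182 to 293 and in hippocampus from 114 to 76, and the pump genes called in fWBI white matter from 5 to 2. Without the animal block, white matter minus prefrontal cortex in control animals was 0.59 (adjusted p = 0.0779) and white matter minus hippocampus in TBI animals 0.57 (adjusted p = 0.0623), both no longer called by edgeR.

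The 5 pump genes called in fWBI white matter were 2 when only the groups compared were fitted and 2 without control white matter libraries 1 and 3, and 2 to 6 when 1 animal was left out. The 0 called after TBI in white matter became 2 with the DESeq2 test and 3 with all 45 libraries in 1 fit. Leaving out 1 animal gave 0.35 to 0.80 for control white matter minus prefrontal cortex, 0.47 to 0.74 for control white matter minus hippocampus, -0.17 to 0.059 for control hippocampus minus prefrontal cortex, 0.55 to 1.00 for TBI hippocampus minus prefrontal cortex and 0.42 to 0.81 for TBI white matter minus hippocampus. For the difference of the TBI effect between white matter and hippocampus it gave -0.21 to 0.18. Precursor genes called in fWBI hippocampus were 4, 7 with DESeq2 and 1 with only the groups compared, and in prefrontal cortex 5 and 8 with the replicate block.

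In white matter the genes called after TBI went from 11 to 740 with DESeq2, 0 with the replicate block, 5 with only the groups compared and 1736 with all 45 libraries; after fWBI they went from 2567 to 1657 with only the groups compared and 4069 with all 45. In hippocampus DESeq2 moved the calls after fWBI from 114 to 277, and in prefrontal cortex from 182 to 466. All 45 libraries in 1 fit called 11 genes after TBI in prefrontal cortex. Depth limits the fWBI libraries most, at 0 to 7 reads of NKAIN4 each. The labels used here give no batch.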

Other observations

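Among the 10 control and TBI animals, control animal 2 had the highest NKAIN4 level in all 3 regions, at 12.0 CPM in white matter, 7.24 CPM in hippocampus and 7.28 CPM in prefrontal cortex. TBI animal 2, given 6.75 Gy, had the lowest in white matter (4.27 CPM) and prefrontal cortex (1.50 CPM) and the next to lowest in hippocampus (2.97 CPM). TBI animal 5, given 8.05 Gy, had 6.90, 6.94 and 2.62 CPM in white matter, hippocampus and prefrontal cortex. With 5 animals at 3 doses, no relation to dose was tested.

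CHRNA4 lies a few genes from NKAIN4 in the RefSeq order, and it was singled out after its values were seen. It was at 8.32, 1.22, 3.18, 3.07 and 2.59 CPM in control and 0.09, 0.41, 0.10, 0.40 and 0.42 CPM in fWBI white matter. The groups did not overlap, and 4.05% of the genes tested in white matter had all fWBI libraries below all control libraries. Without control libraries 1 and 3 the fold change of CHRNA4 in white matter was -2.92 ± 0.51 (edgeR adjusted p = 0.00172). In hippocampus it had -0.69 ± 0.54 (edgeR adjusted p = 0.685). In prefrontal cortex it fell by 1.77 ± 0.39 on the log2 scale after fWBI (edgeR adjusted p = 0.0346), and after TBI it had -1.43 ± 0.38 (edgeR adjusted p = 0.144).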
